A study of Mus musculus with 4 samples.

Results

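The proteasome genes were examined in liver RNA of wild-type (WT) mice and of mice labelled as knockouts (KO) of SREBP1c, the lipogenic transcription factor encoded by Srebf1. They were taken as every gene of the deposited table whose symbol starts with Psm, a letter from a to g and a digit. This gave 50 genes (56 transcript rows) of the 23920 genes in the table, and 46 of the 50 reached a mean of at least 1 FPKM (fragments per kilobase of transcript, scaled to the number of mapped fragments) over the 4 libraries, as did 9820 of all genes. The rule for symbols used the names alone and no measured value, though the proteasome genes were chosen with earlier results of these data known.

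All 4 libraries came from 12-week-old male C57BL/6 mice in the refed state, taken 12 h after a fast of 24 h had ended. There were 2 WT and 2 KO libraries, told apart in the labels only by the SREBP1c genotype, and the labels do not say how the allele was made, or whether each library is another animal. The p-values below thus rest on the spread among 4 samples alone, and that spread may be technical. The targeted gene, Srebf1, had 63.7 and 58.2 FPKM in WT against 8.63 and 6.97 FPKM in KO (limma adjusted p = 0.00172), from a single row that does not separate SREBP1c from SREBP1a. Low FPKM values lay on steps that implied between 20.5 and 22.5 M fragments per library, with 1 library near each value in either group. Of 10 hepatocyte markers 9 were detected, with Apoa1 between 7619 and 8880 FPKM, while Alb was listed at 0 in every library. KO replicate 2 stood apart in acute phase genes, which were highest there for 14 of 14 genes (31.6% of all genes were highest in that library), with a median of 2.05 above the WT mean on the log2(FPKM + 1) scale.

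The proteasome degrades proteins that carry ubiquitin chains. Its core particle is a barrel of outer alpha rings, built from Psma gene products, and inner beta rings, built from Psmb gene products, which hold the proteolytic sites. A regulatory cap of ATPases (Psmc) and other subunits (Psmd) binds, unfolds and feeds in the substrates. Interferon-gamma replaces the catalytic beta subunits by inducible ones, which gives the immunoproteasome, and immune cells carry these subunits constitutively. The transcription factor NRF1, encoded by Nfe2l1, raises proteasome genes together when proteasome activity is short, through antioxidant response elements.

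The promoters of the standard catalytic subunits Psmb5 and Psmb6 and of the inducible Psmb8, Psmb9 and Psmb10 are printed because the results contrast the standard with the inducible ones. Each window runs from 250 bases before to 50 bases after the transcription start in RefSeq (GRCm38.p6, the assembly of mm10), 5′ to 3′ on the gene's strand. Psmb5 lies at chr14:54617946-54618245 on the minus strand, Psmb6 at chr11:70525107-70525406 on the plus strand, Psmb8 at chr17:34197945-34198244 on the plus strand, Psmb9 at chr17:34187281-34187580 on the minus strand and Psmb10 at chr8:105938343-105938642 on the minus strand. Psmb7, the other standard catalytic subunit, had no entry. Capitals mark every match, on either strand, to the motifs named after the sequences.
Psmb5: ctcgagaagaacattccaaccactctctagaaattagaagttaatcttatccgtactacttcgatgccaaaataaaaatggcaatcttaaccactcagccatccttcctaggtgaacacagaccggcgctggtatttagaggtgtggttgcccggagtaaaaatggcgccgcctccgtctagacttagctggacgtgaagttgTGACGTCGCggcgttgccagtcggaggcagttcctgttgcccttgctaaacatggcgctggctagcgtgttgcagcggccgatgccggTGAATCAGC
Psmb6: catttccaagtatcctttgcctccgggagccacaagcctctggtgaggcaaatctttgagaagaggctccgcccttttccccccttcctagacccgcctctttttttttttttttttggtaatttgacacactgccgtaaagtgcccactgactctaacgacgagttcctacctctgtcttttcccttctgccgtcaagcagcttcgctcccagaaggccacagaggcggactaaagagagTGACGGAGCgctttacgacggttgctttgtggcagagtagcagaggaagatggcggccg
Psmb8: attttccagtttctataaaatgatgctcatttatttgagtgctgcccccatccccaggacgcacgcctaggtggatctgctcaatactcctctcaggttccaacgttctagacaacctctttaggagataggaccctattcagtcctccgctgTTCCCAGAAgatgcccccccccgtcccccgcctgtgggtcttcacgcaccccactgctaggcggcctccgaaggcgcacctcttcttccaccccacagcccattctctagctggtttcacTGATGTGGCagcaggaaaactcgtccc
Psmb9: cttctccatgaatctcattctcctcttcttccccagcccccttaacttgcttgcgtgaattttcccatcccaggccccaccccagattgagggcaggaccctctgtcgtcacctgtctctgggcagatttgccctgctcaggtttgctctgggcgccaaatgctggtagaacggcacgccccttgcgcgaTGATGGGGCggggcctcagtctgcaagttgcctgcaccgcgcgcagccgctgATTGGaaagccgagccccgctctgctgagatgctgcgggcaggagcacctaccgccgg
Psmb10: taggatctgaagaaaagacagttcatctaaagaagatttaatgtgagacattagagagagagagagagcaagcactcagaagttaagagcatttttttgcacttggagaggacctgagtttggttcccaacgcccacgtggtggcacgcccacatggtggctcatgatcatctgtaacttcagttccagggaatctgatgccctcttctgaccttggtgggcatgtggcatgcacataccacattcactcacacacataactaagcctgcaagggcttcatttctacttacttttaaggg

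The wide antioxidant response element core, TGANNNNGC, was searched on both strands, and so was its narrow form TGACNNNGC, each match of which is also a match of the wide form. The narrow form occurred 47 to 39 bases before the start of Psmb5 and 9 to 1 bases before the start of Psmb6. The inducible Psmb8, Psmb9 and Psmb10 windows held no narrow match, and Psmb8 and Psmb9 each held 1 wide match. Psmb8 alone among the 5 windows held a gamma-activated site, TTCNNNGAA, 97 to 89 bases before its start. The Psmb9 window held the CCAAT box CCAAT on the opposite strand, 8 to 4 bases before the start. Psmb10 held none of the motifs searched and is printed without capitals. Tap1, the peptide transporter gene of antigen presentation, lies between Psmb9 and Psmb8 on chromosome 17. Its annotated interval is separated by 225 bases from the transcription start of Psmb9, so that it reaches into the printed Psmb9 window, and by 969 bases from that of Psmb8.

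Of the 50 genes 42 had at least 1 promoter in the RefSeq table. The wide antioxidant core was found in 24 of 42 (57.1%, against 45.0% of 27025 genes) and the narrow one in 6 (14.3% against 14.0%), namely Psmb5, Psmb6, Psmc6, Psmd9, Psmd12 and Psme4. CCAAT was found in 15 (35.7% against 41.1%). Of the genes with a promoter, they included 5 of 7 alpha ring and 1 of 4 standard beta ring genes. They also included 2 of 5 cap ATPase and 2 of 9 other cap genes. TTCNNNGAA was found in 3 (7.14% against 9.55%) and the interferon-stimulated core (GAAA, 2 free bases and again GAAA) in 5 (11.9% against 3.99%), namely Psmb3, Psmd4, Psmd9, Psme1 and Psmg4. The sterol regulatory element TCACNCCAC, the motif of SREBP proteins, occurred in 0 of 42, against 1.44% of all genes. These are matches of letters within 300 bases and say nothing of binding.

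The comparison of KO with WT asks whether loss of SREBP1c goes with another level of proteasome transcripts. None of the 46 proteasome genes passed the threshold (limma with Benjamini-Hochberg adjustment over 9820 genes, adjusted p at least 0.570), where 0.0713% of all genes did, 0.0102% higher and 0.0611% lower in KO. At an unadjusted limma p under 0.05 there was 1 gene, the inducible subunit Psmb8, against 7.75% of all genes. The log2 differences (of log2(FPKM + 1), KO minus WT) ran from −0.17 for Psmd6 to 0.33 for Psmb8. Their 95% intervals together spanned −0.60 to 0.59, which is 0.658-fold to 1.51-fold, and 43 of 46 intervals lay within 0.5 of 0. Both KO libraries lay above both WT libraries for 4 of 46 genes (Psmb8, Psmb9, Psmd10 and Psme2), against 22.4% of all genes, and below for 1 (Psme4), against 16.4%. These libraries thus bound the difference of each gene without showing that the groups were equal. The median over the 46 genes was −0.03, against 0.02 over all genes tested, 29 had a negative difference (63.0%, against 45.4% of all genes) and 17 a positive one (37.0% against 54.6%). Its sign rested on which KO library was kept: leaving out KO replicate 1 gave −0.16, and leaving out KO replicate 2 gave 0.08. In bulk tissue fewer cells of a type and less RNA per cell cannot be told apart.

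**Figure D1:**
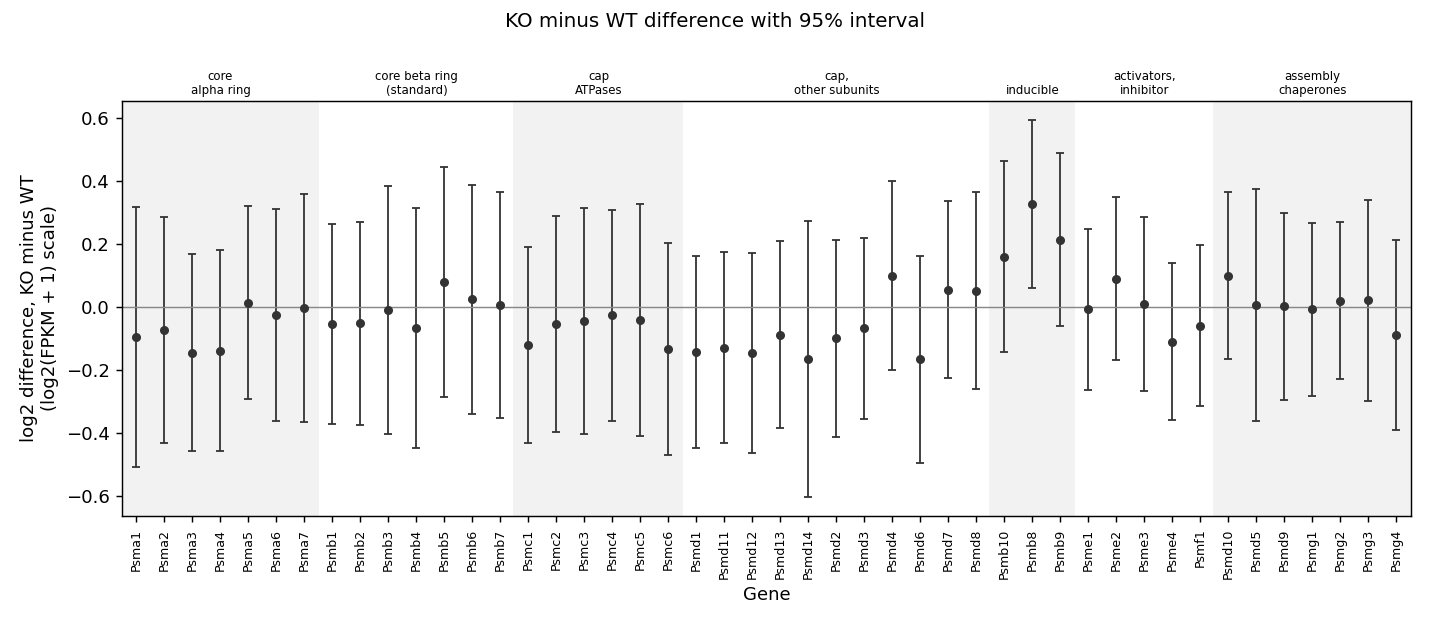
KO minus WT difference of each of the 46 proteasome genes on the log2(FPKM + 1) scale (points) with its 95% limma interval (bars), grouped by role. The interval of Psmb8 alone does not reach 0, and none of the genes passed after adjustment.

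The outer alpha ring had a mean level between 91.1 FPKM for Psma5 and 200.1 FPKM for Psma7, 2.20-fold apart. Psma7 had 198 and 201 FPKM in WT against 224 and 177 FPKM in KO. The KO libraries thus lay on either side of both WT libraries (log2 difference −0.00, 95% interval −0.37 to 0.36, limma adjusted p = 0.997). Psma5 had 94.2 and 87.1 FPKM in WT against 98.6 and 84.7 FPKM in KO, with the same order of KO replicates. Psma3, with the largest difference of the ring, had 141 and 133 FPKM in WT against 134 and 114 FPKM in KO (log2 difference −0.15, limma adjusted p = 0.824). Its groups overlapped narrowly, KO replicate 1 lying just above WT replicate 2. The differences of Psma1, Psma2, Psma4 and Psma6 lay between −0.14 for Psma4 and −0.03 for Psma6. All 7 alpha genes were lowest in KO replicate 2.

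Among the standard beta subunits the level ran from 136 FPKM for Psmb2 to 320 FPKM for Psmb4, 2.35-fold apart. Psmb4, a structural subunit, was the highest proteasome gene, with 323 and 329 FPKM in WT against 352 and 275 FPKM in KO. Psmb2, also structural, had 137 and 140 FPKM in WT against 146 and 122 FPKM in KO. In both genes the KO libraries bracketed the WT libraries, as in Psmb1 and Psmb3, with log2 differences of −0.05 and −0.01.

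The catalytic beta subunits followed the same order. Psmb5, which carries the chymotrypsin-like site, had 191 and 195 FPKM in WT against 230 and 181 FPKM in KO (log2 difference 0.08, 95% interval −0.29 to 0.45, limma adjusted p = 0.924). Psmb6, with the caspase-like site, had 186 and 200.2 FPKM in WT against 220.1 and 175 FPKM in KO (0.02, interval −0.34 to 0.39). Psmb7, with the trypsin-like site, had 258 and 242 FPKM in WT against 279 and 225 FPKM in KO (0.00, interval −0.35 to 0.36). For all 7 standard beta genes KO replicate 1 was the highest library and KO replicate 2 the lowest.

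The cap was expressed at a lower level per length than the core. The median of gene means was 87.6 FPKM for its 17 genes and 180 FPKM for the 14 core genes. Within each library the mean core level was 1.93 and 2.03 times the mean cap level in WT and 2.07 and 1.98 times in KO, so the ratio overlapped between the groups. Of the ATPases that unfold substrates, Psmc4 was highest, with 124 and 119 FPKM in WT against 132 and 108 FPKM in KO. Psmc6 was lowest, with 90.5 and 79.6 FPKM in WT against 84.5 and 70.5 FPKM in KO. All 6 ATPase genes had a negative difference, between −0.13 and −0.03, and all 6 overlapped between the groups.

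Of the cap subunits without ATPase activity, Psmd2, a large scaffold subunit, had 152 and 137 FPKM in WT against 144 and 126 FPKM in KO. Psmd12, a lid subunit, was lowest, with 61.1 and 55.9 FPKM in WT against 57.7 and 48.1 FPKM in KO. Psmd6, another lid subunit, had 91.4 and 79.9 FPKM in WT against 82.4 and 70.1 FPKM in KO (log2 difference −0.17, limma adjusted p = 0.806), the lowest difference of the cap. Psmd1, the other large scaffold subunit, had 70.1 and 62.0 FPKM in WT against 63.6 and 55.8 FPKM in KO. In these 4 genes KO replicate 1 lay between the WT libraries and KO replicate 2 below them.

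Psmd14, the deubiquitinase that removes the chain from the substrate, varied most of all 46 genes, with 82.8 and 71.3 FPKM in WT against 80.5 and 58.1 FPKM in KO. Its interval was the one that reached lowest (−0.60 to 0.27). The differences of Psmd3, Psmd7, Psmd8, Psmd11 and Psmd13 lay between −0.13 for Psmd11 and 0.05 for Psmd7. Psmd4, a ubiquitin receptor, was the exception in the cap, since its lowest library was WT replicate 2, with 125 and 113 FPKM in WT against 135 and 121 FPKM in KO. Its value sums 2 transcript rows, and in the row with the higher level KO replicate 2 was lowest, with 63.4 FPKM against 63.7 FPKM in WT replicate 2.

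**Figure D2:**
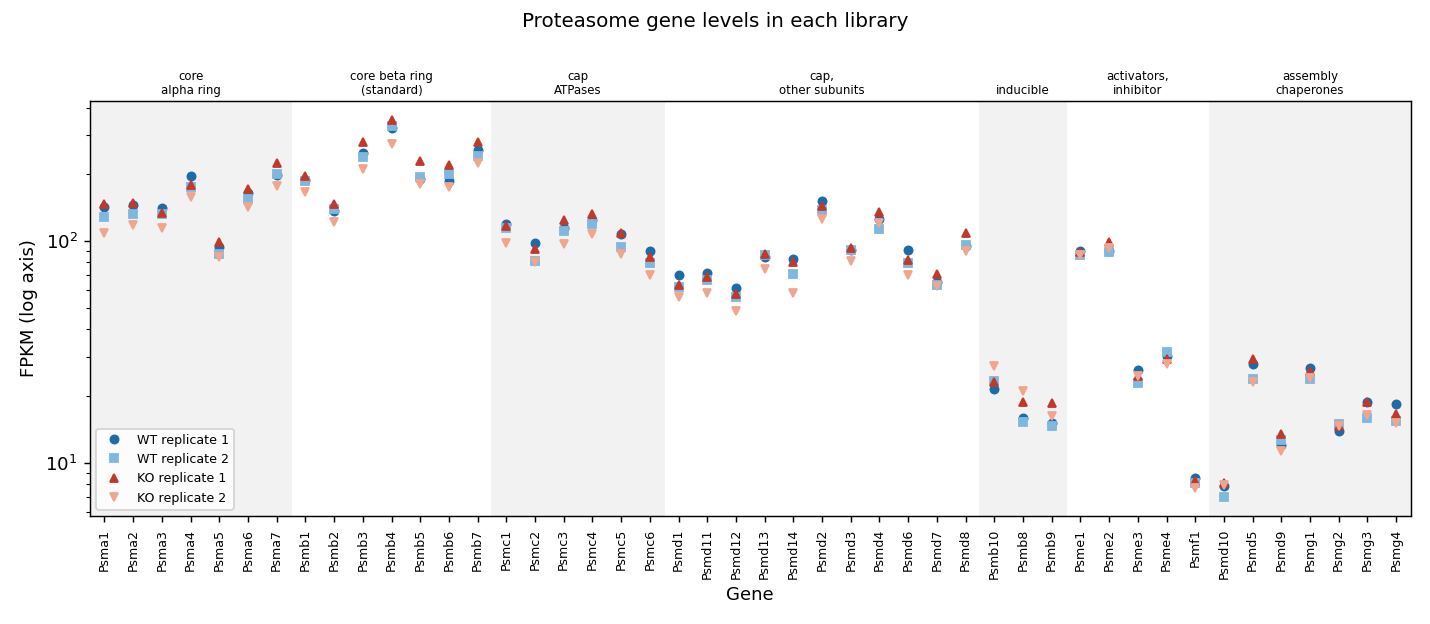
FPKM (log axis) of the 46 proteasome genes in each of the 4 libraries, grouped by role. Core and cap genes lie between 48.1 and 352 FPKM, above the inducible subunits, the chaperones, Psme3, Psme4 and Psmf1, while Psme1 and Psme2 lie within that range, and KO replicate 2 is the lowest symbol in 30 of 31 core and cap genes.

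Nearly all of the 31 core and cap genes were thus lowest in KO replicate 2. Their highest library was either KO replicate 1 or WT replicate 1. KO replicate 2 was the lowest library for 30 of 31, against 26.8% of all genes tested, and it was below KO replicate 1 for all 31, against 49.5% of all genes. KO replicate 1 was the highest library for 20 of 31, against 26.7% of all genes, and both held for 19, against 9.42%. Of the 960 genes tested with means in the FPKM range of core and cap, KO replicate 2 was lowest for 45.1% and below KO replicate 1 for 70.7%, KO replicate 1 was highest for 40.9%, and both held for 19.5%, so the background was higher at the level of these genes. Relative to the WT mean, the 31 genes had a median of −0.20 in KO replicate 2 on the log2(FPKM + 1) scale, and of 0.09 in KO replicate 1. It was 0.04 in WT replicate 1 and −0.04 in WT replicate 2, which mirror each other by construction. The spread within KO thus exceeded the difference between the groups (median −0.05). Both KO libraries lay outside the WT range on the same side for none of the 31 genes, where 22.4% of all genes were higher and 16.4% lower in both KO libraries. The count for KO replicate 2 was also 30 of 31 after upper-quartile scaling and after quantile normalization.

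Within the replicate numbers the same genes gave opposite signs. KO replicate 1 against WT replicate 1 had a median of 0.05, with 20 of 31 genes higher. Of all genes 4780 of 9820 were higher, and in the FPKM range of core and cap 556 of 960, with a median of 0.04. KO replicate 2 against WT replicate 2 had a median of −0.17, with 30 of 31 genes lower. Of all genes 4102 of 9820 were lower, and in that FPKM range 567 of 960, with a median of −0.04. The medians of that range thus had opposite signs too. The libraries numbered 1 had about 22.5 M implied fragments and those numbered 2 about 20.5 M, a depth shared across the genotypes. The part of depth, and of the acute phase signal of KO replicate 2, in these values was not tested.

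**Figure D3:**
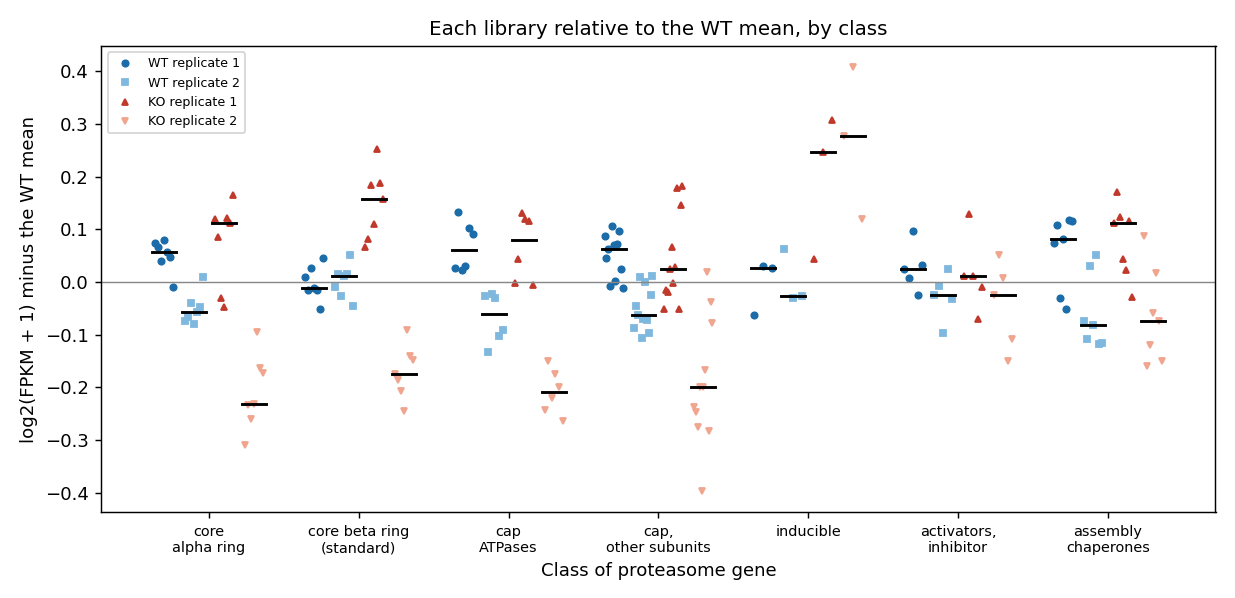
log2(FPKM + 1) of each gene minus its WT mean, by class and library (symbols), with the class median (bars). In the core and cap classes KO replicate 2 lies lowest by its median, between −0.23 and −0.18, while in the inducible class both KO medians lie above the WT libraries, at 0.25 and 0.28.

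KO replicate 2 was the lowest library for none of the 3 inducible catalytic subunits, against 26.8% of all genes. These 3 genes lay below the FPKM range of core and cap, and had the 3 lowest limma p-values of the 46 genes. Psmb8, which takes the place of Psmb5 and whose printed window held the gamma-activated site, had 16.0 and 15.3 FPKM in WT against 18.7 and 21.0 FPKM in KO, both KO libraries above both WT libraries. Its mean was 1.27-fold higher in KO (15.6 ± 0.494 against 19.9 ± 1.64 FPKM, SD, n = 2 each), with a log2 difference of 0.33, a standard error of 0.11 and a limma adjusted p of 0.570. Psmb9, which replaces Psmb6, had 15.2 and 14.6 FPKM in WT against 18.6 and 16.2 FPKM in KO, again without overlap (log2 difference 0.21, 95% interval −0.06 to 0.49, limma adjusted p = 0.701). Psmb10, which replaces Psmb7, had 21.4 and 23.4 FPKM in WT against 23.1 and 27.3 FPKM in KO, where KO replicate 1 lay just under WT replicate 2 (0.16, interval −0.14 to 0.46, limma adjusted p = 0.798). None of these passed, and the direction of all 3 was the same in each alternative run. For Psmb8 and Psmb9, whose groups did not overlap, leaving out any library could not have turned it. Without KO replicate 2 the log2 differences of Psmb8, Psmb9 and Psmb10 were 0.25, 0.31 and 0.04.

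The weight of the inducible subunits beside their standard partners was compared as a share of the pair's FPKM, which is a level per length. Psmb8 made up 7.71% and 7.26% of Psmb8 plus Psmb5 in WT and 7.52% and 10.4% in KO, so KO replicate 1 lay within the WT range (means 7.49 ± 0.319% and 8.97 ± 2.04%, SD, n = 2 each; exact two-sided permutation p = 0.667). Psmb9 made up 7.52% and 6.79% of Psmb9 plus Psmb6 in WT and 7.80% and 8.48% in KO, with no overlap (means 7.15 ± 0.522% and 8.14 ± 0.481%; exact permutation p = 0.333, the smallest that 2 against 2 libraries allow). Psmb10 made up 7.65% and 8.80% of Psmb10 plus Psmb7 in WT and 7.63% and 10.8% in KO (means 8.22 ± 0.815% and 9.21 ± 2.23%; exact permutation p = 1.00). There were 3 such pairs in the comparison, and with this number of libraries no p could pass 0.05 before or after adjustment. Without KO replicate 2 the Psmb8 difference fell from 1.48 to 0.036 percentage points and that of Psmb10 turned to −0.590. Without KO replicate 1 they were 2.92 and 2.57. The Psmb9 difference of 0.989 was 0.649 without KO replicate 2, 0.620 without WT replicate 2 and at most 1.36 with any 1 library left out. The summed share of the 3 inducible subunits was 7.63% and 7.71% in WT, 7.65% in KO replicate 1 and 9.99% in KO replicate 2.

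**Figure D4:**
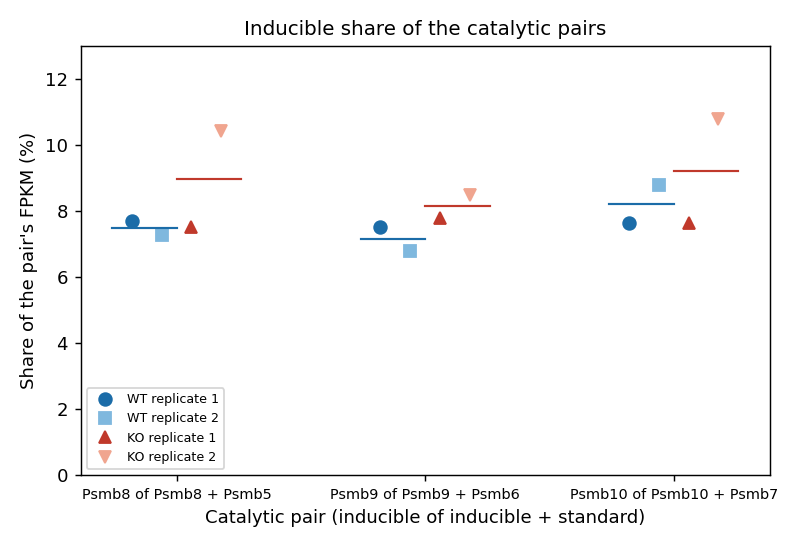
Share of each catalytic pair's FPKM that came from the inducible subunit, in percent, for the 4 libraries (symbols) with the group means (lines). KO replicate 2 is the highest symbol in each pair, and KO replicate 1 lies at 7.52%, 7.80% and 7.63%.

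Immune cells express the inducible subunits, so their markers were read beside them. Of 20 immune markers 19 were in the table and 11 reached a mean of 1 FPKM. All 11 were highest in KO replicate 2. Their summed level, over the 19, was 174 and 130.1 FPKM in WT against 160.4 and 259 FPKM in KO, so WT replicate 2 was lowest and KO replicate 2 highest. Ptprc, the general leukocyte marker, had 1.13 and 0.722 FPKM in WT against 0.791 and 1.35 FPKM in KO, and the T cell marker Cd3e was at most 0.325 FPKM. The Kupffer cell marker Clec4f had 27.0 and 20.6 FPKM in WT against 19.5 and 35.2 FPKM in KO. Cd74 and H2-Aa, of MHC class II, were higher in both KO libraries, with 42.9 and 29.9 against 48.1 and 71.5 FPKM and 15.8 and 10.1 against 18.5 and 26.1 FPKM (limma adjusted p = 0.571 and 0.568). In KO replicate 1, Cd74 and H2-Aa lay above the WT range, as Psmb8 and Psmb9 did, and the other 9 of the 11 markers lay within or below it, while Psmb10 lay within it. The part of these cells in the inducible subunits was not tested.

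The MHC class I genes, which use the peptides that immunoproteasomes make, had a median log2 difference of 0.03 as a list. None of 14 measured passed, none had an unadjusted limma p under 0.05 (7.75% of all genes) and 9 had a positive difference (54.6% of all genes). KO replicate 2 was above KO replicate 1 for 13 of 14 and below it for 1, where it was below for 49.5% of all genes. Tap1, next to Psmb9, had 7.92 and 5.78 FPKM in WT against 7.07 and 7.85 FPKM in KO, which overlapped. Irf1, a transcription factor that induces the immunoproteasome, had 10.7 and 8.63 FPKM in WT against 7.02 and 9.23 FPKM in KO, so it was not higher in KO. Erap1, a trimming peptidase, had the smallest p of the list, with 17.6 and 16.9 FPKM in WT against 12.9 and 15.3 FPKM in KO (log2 difference −0.28, limma adjusted p = 0.644). The class I heavy chain H2-D1 was higher in both KO libraries, with 254 and 242 FPKM in WT against 261 and 328 FPKM in KO (0.24, limma adjusted p = 0.747). Tapbp, the tapasin gene, was too, with 25.3 and 26.9 FPKM in WT against 27.9 and 30.6 FPKM in KO (0.16, limma adjusted p = 0.765).

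The activators, which open the core in place of the cap, were the least variable class, with a median SD over the 4 libraries of 0.06 on the log2(FPKM + 1) scale. Psme1 and Psme2 encode the paired subunits of the interferon-inducible activator PA28. Psme1 had 89.7 and 86.7 FPKM in WT against 88.8 and 86.6 FPKM in KO, the closest agreement of the 46 genes (log2 difference −0.01, 95% interval −0.26 to 0.25). Psme2 had 90.5 and 89.5 FPKM in WT against 98.5 and 93.3 FPKM in KO, without overlap (log2 difference 0.09, limma adjusted p = 0.873). It sums 2 rows, and the main row alone overlapped, with 90.5 and 84.9 FPKM in WT against 93.3 and 88.6 FPKM in KO. In KO replicate 2, which was also the lowest library of Psme1, they were −0.03 and 0.05 from their WT means on the log2(FPKM + 1) scale, beside the median of −0.20 for core and cap, and this difference was not tested.

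Psme3, the subunit of the nuclear PA28 gamma activator, had 26.2 and 22.8 FPKM in WT against 24.6 FPKM in each KO library. Psme4, which encodes the activator PA200, had 30.4 and 31.5 FPKM in WT against 29.4 and 27.8 FPKM in KO, lower in both KO libraries (log2 difference −0.11, interval −0.36 to 0.14, limma adjusted p = 0.834). Psmf1, the inhibitor PI31, had 8.52 and 8.12 FPKM in WT against 8.25 and 7.64 FPKM in KO. The 5 activator and inhibitor genes thus spanned 11.4-fold in mean level.

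The chaperones that assemble the particle without staying in it were low, between 7.71 FPKM for Psmd10 and 26.1 FPKM for Psmd5, both of which help to build the cap. Psmd5 had 28.0 and 23.9 FPKM in WT against 29.3 and 23.1 FPKM in KO, so libraries of 1 replicate number resembled each other. Psmd10 had 7.85 and 6.99 FPKM in WT against 8.08 and 7.93 FPKM in KO, without overlap (log2 difference 0.10, limma adjusted p = 0.862). Its value sums 2 transcript rows. The higher row alone overlapped, with 7.14 and 5.65 FPKM in WT against 7.54 and 7.07 FPKM in KO. The core chaperones Psmg1 to Psmg4 had means of 25.2, 14.5, 17.5 and 16.4 FPKM and differences between −0.09 and 0.02. Psmd9, a further cap chaperone, had 12.0 and 12.6 FPKM in WT against 13.5 and 11.2 FPKM in KO, in the order of the core genes. Pomp, a core maturation factor named outside the Psm series, was far higher, with 239.7 and 235 FPKM in WT against 259 and 232 FPKM in KO.

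Of 23 further proteasome and ubiquitin shuttle genes 22 were tested. None passed, and 3 of 22 had an unadjusted limma p under 0.05, against 7.75% of all genes. A positive difference was found for 11 (54.6% of all genes) and a negative one for 11 (45.4%), with a median of 0.00. Nfe2l1, which encodes NRF1, had 16.3 and 17.8 FPKM in WT against 21.0 and 31.1 FPKM in KO, both above WT (1.53-fold, log2 difference 0.56, 95% interval 0.10 to 1.02, limma adjusted p = 0.570). It was highest in KO replicate 2, where the core and cap genes were lowest. Ddi2, the protease that activates NRF1, was also highest there, with 25.2 and 25.6 FPKM in WT against 22.3 and 32.1 FPKM in KO. Zfand2a, a stress-induced proteasome-associated gene, had 3.46 and 2.69 FPKM in WT against 4.40 and 4.69 FPKM in KO (log2 difference 0.45, limma adjusted p = 0.489). Its relative Zfand5, a proteasome activator, went the other way, with 8.17 and 5.56 FPKM in WT against 4.82 and 4.49 FPKM in KO (−0.46, limma adjusted p = 0.625). Both genes had their KO libraries on 1 side of WT, with opposite signs. Ubqln4, a ubiquitin shuttle, had 9.29 and 9.70 FPKM in WT against 10.6 and 11.6 FPKM in KO (0.21, limma adjusted p = 0.690).

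Adrm1 and Shfm1 encode cap subunits under other names. Adrm1, a ubiquitin receptor, had 95.3 and 84.6 FPKM in WT against 104 and 94.2 FPKM in KO. Shfm1, the small subunit also called Sem1, had 161 and 160.7 FPKM in WT against 175 and 162 FPKM in KO, which did not overlap by a margin of under 1 FPKM. Neither was lowest in KO replicate 2, unlike 16 of the 17 cap genes of the Psm series. Of all genes in the FPKM range of core and cap 45.1% were.

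Ubiquitin genes and the activating enzyme were read beside the proteasome. Ubb, a polyubiquitin gene, had 562 and 561 FPKM in WT against 573 and 623 FPKM in KO, slightly higher in both (log2 difference 0.09, limma adjusted p = 0.899). Rps27a, in which ubiquitin is fused to a ribosomal protein, overlapped between the groups, and so did Uba1, the activating enzyme. None of these 3 passed.

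NRF2 targets, the antioxidant genes that share the response element with proteasome genes, were also low in KO replicate 2. It was the lowest library for 13 of 14 measured, against 26.8% of all genes, with a median of −0.60 relative to the WT mean and 0.00 in KO replicate 1. In the FPKM range of core and cap 45.1% of genes were lowest there. The means of these 14 ran from 6.41 to 1178 FPKM, with a median of 67.1 FPKM. The list varied within WT too. WT replicate 2 was below WT replicate 1 for 12 of 14 (median −0.27), against 5857 of 9820 among all genes. Gstm3, a glutathione transferase, had 180 and 84.6 FPKM in WT against 118 and 30.9 FPKM in KO. Nfe2l2, which encodes NRF2, had 30.5 and 22.8 FPKM in WT against 24.6 and 16.9 FPKM in KO. None of these 14 passed the limma threshold, and 1, Osgin1, had an unadjusted p under 0.05, with 379 and 256 FPKM in WT against 199 and 143 FPKM in KO (adjusted p = 0.460). Whether the low levels of these genes and of the core and cap genes in KO replicate 2 have a common source was not tested.

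The other 4 of the 50 genes stayed under a mean of 1 FPKM and entered no test. Psmb11, the thymus-specific subunit, was listed at 0 in every library. Psma8, the testis-specific alpha subunit, had 0.486 and 0.237 FPKM in WT against 0.190 and 0.297 FPKM in KO. Psme2b, a copy of Psme2 by name, was between 0.0463 and 0.217 FPKM. Psmc3ip, whose product takes part in meiotic recombination and is no proteasome subunit, was between 0.169 and 0.452 FPKM.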

How the data were processed

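Liver RNA was sequenced in 4 libraries. Per the file headers, the authors deposited a single table with an FPKM value for each RefSeq transcript in each library. The submitters' processing notes name Bowtie, TopHat and mm10 and no version. How FPKM was computed, with which annotation and strand setting, is not given in the sources used here. Rows of a gene were summed, so its value depends on how fragments were shared between transcripts. Steps of low values gave the implied depth, with GENCODE transcript lengths. Of these values 49.0% to 52.3% lay within 0.1 of a whole fragment, so no count test was run.

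KO and WT were compared by limma 3.58.1 (R 4.3.3; moderated test, intensity trend) on log2(FPKM + 1), over genes whose mean reached 1 FPKM. P-values were adjusted by Benjamini-Hochberg over all of these, at a threshold of 0.05. The scale understates changes of low genes. The script was tested on simulated data. Shares were compared by exact permutation of the libraries. Python 3.11.15, numpy 2.4.6, pandas 2.3.3, scipy 1.17.1 and matplotlib 3.10.9 were used.

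The proteasome genes, gene lists and motifs were chosen with earlier results of these data known. Values by library were given for the catalytic subunits, activators, inhibitor, the highest and lowest gene of each class, the 8 lowest p-values, and up to 4 genes of each other list with the lowest p, besides Nfe2l1, Pomp, Tap1 and Irf1. Psmd4, Psmd14 and the remaining list genes were named after their values were seen. The alternatives changed the pseudocount (0.1 or 0.5), the filter (none or 5 FPKM), the scaling (upper quartile or quantile), the transcript rows (highest only), the trend, the block, the threshold (0.1) or the libraries kept. Some genes of the lists are not reported here.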

Additional observations from a re-analysis of the deposited data

How the results depend on the processing

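None of the proteasome genes passed under any alternative, and the smallest limma adjusted p of any was 0.156, without KO replicate 1. At an unadjusted p under 0.05 there were 0 to 3. The number of genes called among all tested was 7. It was 11 with a pseudocount of 0.1, 0 without a filter (1233 at an unadjusted limma p under 0.05), 3 with a minimum of 5 FPKM and 4 with the highest transcript row. It ran from 1 without WT replicate 1 to 357 without KO replicate 1, with 4 without WT replicate 2 and 138 without KO replicate 2. With the replicate number as a block it was 19, and the block changed no call among the proteasome genes. The deviations of same-numbered libraries correlated across genes with r = 0.17, over only 2 pairs, so the libraries share a number and no stated source.

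Leaving out KO replicate 1 moved the median difference of the proteasome genes to −0.16, and leaving out KO replicate 2 to 0.08. Of 24 named genes 13 kept their sign in every alternative. After upper-quartile scaling Psma5 turned to −0.0165, Psmb6 to −0.0059, Psmb7 to −0.0247, Psmd5 to −0.0232 and Psme3 to −0.0192. After quantile normalization Psmd5 turned to −0.0221 and Psme3 to −0.0237. Positive differences numbered 17 of 46, 9 after upper-quartile and 12 after quantile scaling. With 1 library left out the ranges that crossed 0 were −0.10 to 0.12 for Psma5, −0.17 to 0.17 for Psma7, −0.19 to 0.0811 for Psmb2, −0.24 to 0.11 for Psmb4, −0.092 to 0.25 for Psmb5, −0.14 to 0.19 for Psmb6, −0.15 to 0.16 for Psmb7, −0.17 to 0.12 for Psmc4, −0.16 to 0.17 for Psmd5, −0.0315 to 0.0169 for Psme1 and −0.0883 to 0.11 for Psme3. The share difference of Psmb10 ran from −0.590 to 2.57 percentage points. The cause of these shifts was not tested. The count of 30 core and cap genes lowest in KO replicate 2 was 31 with the highest transcript row. Its alternatives were added after the data were seen. With 2 libraries a group, the number of libraries limits the precision.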

Other observations

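Srebf1 lies on chromosome 11, and so do 8 of the 46 proteasome genes tested. The nearest, Psmb6, starts 10.3 Mb from Srebf1. The 8 differences ran from −0.15 for Psmd12 to 0.02 for Psmb6, with a median of −0.06, against −0.03 for the 38 genes on other chromosomes. None of the 8 passed the limma threshold, and none had an unadjusted p under 0.05.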
